A study of Rattus norvegicus with 6 samples.

Results

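Notch1, Notch2, Jag1 and Hes1 are genes of the Notch pathway, and all 4 were lower in the embryonic cortex of the tish rat than in that of the Sprague-Dawley (SD) rat. The 4 were chosen by their Ensembl gene IDs, ENSRNOG00000019322 for Notch1, ENSRNOG00000018835 for Notch2, ENSRNOG00000007443 for Jag1 and ENSRNOG00000001720 for Hes1, out of 32754 gene IDs in the deposited table. The table lists IDs alone. The symbols are those that came with the list of IDs, and they were not checked against an annotation of the build Rnor_6.0, on which the reads were counted.

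Notch1 and Notch2 encode receptors that span the cell membrane, and Jag1 encodes a ligand that is itself bound to the membrane of a neighbouring cell. When a ligand binds, the receptor is cut and its inner part moves to the nucleus, where it joins the DNA-binding protein RBPJ and turns on targets such as Hes1. Hes1 encodes a transcriptional repressor. In the embryonic cortex the pathway is known for keeping radial glia, the dividing cells that line the ventricle, from becoming neurons too early.

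RNA was sequenced from the cortex of 6 embryos at embryonic day 18. The 3 SD animals (the control strain) and the 3 tish animals each comprised 2 males and 1 female, with 1 library per animal. The tish rat is a line with bilateral heterotopia, a band of misplaced neurons beneath the cortex, and a deletion in Eml1 is named in the title of the series. Neocortex was taken from SD animals, whereas the tish tissue is described as cortex with its normally placed and its heterotopic, dysplastic parts. Tissue description and genotype therefore cannot be told apart. Litters are not named in the sample descriptions, so the p-values measure the spread between these animals.

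Total counts lay between 15625915 and 20844504 per library, and 18985 to 19364 genes had at least 1 count. Libraries of 1 group differed by more than counting error, with a chi-square of 8.56 to 24.5 times its degrees of freedom. The SD 1 library was the least like its replicates, and tish 2 and tish 3 were the least alike tish pair. Eml1, the markers of cortex and of other cell types and the rest of the Notch pathway were not analysed here. The reason is that no source used here pairs their symbols with the IDs of the table.

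All 4 genes passed the count filter, and all 4 were called lower in tish (edgeR quasi-likelihood test, Benjamini-Hochberg adjusted p under 0.05 over 14818 tested genes). The background was high: 26.3% of tested genes were called in either direction and 12.9% were called lower in tish. Libraries of the groups did not overlap for any of the 4, where 22.6% of tested genes had every tish library below every SD library and 44.3% had groups apart in either direction. Their median log2 fold change, the base-2 logarithm of tish over SD, was -1.05, beside -0.02 over all tested genes and -0.67 over the genes called lower. The genes were selected with earlier results of these data known, so these counts describe the 4 genes and do not test the pathway. In bulk tissue, fewer cells that express a gene and less RNA per cell cannot be told apart.

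**Figure D1:**
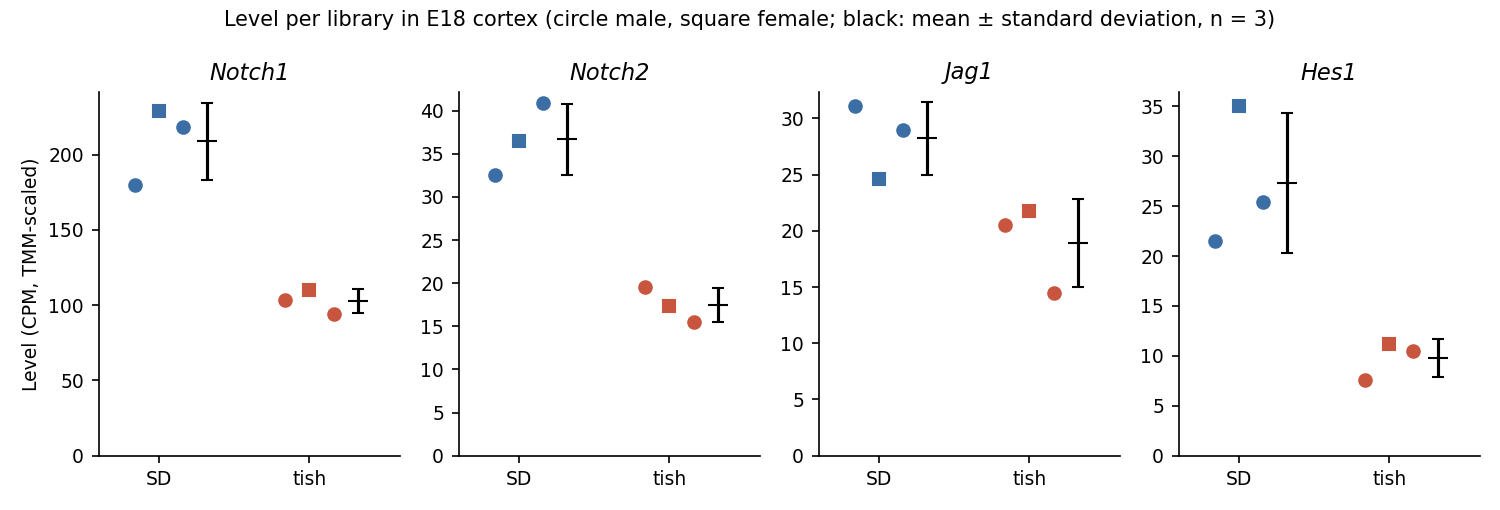
Level of each gene in each library, in CPM scaled by TMM factors, with each vertical axis starting at 0. Blue points are SD and red points tish, squares are the female animals, and black bars give the mean and standard deviation (n = 3 each). For each of the 4 genes every tish library lies below every SD library, with the narrowest gap for Jag1.

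The receptor Notch1 stood at less than 50% of its SD level in tish on average. Levels are given as CPM, that is counts set relative to the library total and the TMM factor of edgeR, for animals 1, 2 and 3 of a group in that order. For Notch1 they were 180.0, 228.8 and 218.2 CPM among SD animals, and 103.7, 110.0 and 94.0 CPM among tish animals. The lowest SD library was 1.64 times the highest tish library, so the gap between the genotypes exceeded the range within SD, where the highest library was 1.27 times the lowest. The SD mean was 209 ± 25.6 CPM and the tish mean 103 ± 8.07 CPM (± standard deviation, n = 3 per group), which puts tish at 49.1% of SD. The log2 fold change was -1.03 (SE 0.11, 95% interval -1.27 to -0.79, edgeR adjusted p = 0.000333), a level 2.04-fold higher in SD. Notch1 was read at depth, with 1625 to 4240 counts per library, so counting error was 1.54% to 2.48% of a value, against a spread between animals of 12.3% in SD and 7.87% in tish.

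Notch2, the second receptor, was lower by nearly the same factor. The SD animals had 32.6, 36.5 and 40.9 CPM and the tish animals 19.5, 17.4 and 15.5 CPM. The 2 groups were again apart, with the lowest SD library at 1.67 times the highest tish library. The SD mean of 36.7 ± 4.16 CPM compared with a tish mean of 17.5 ± 2.01 CPM (± standard deviation, n = 3 per group), so tish stood at 47.7% of SD. The log2 fold change was -1.07 (SE 0.13, 95% interval -1.36 to -0.78, edgeR adjusted p = 0.000645). The order of the animals was not that of Notch1: within SD the highest library was SD 3 for Notch2 and SD 2 for Notch1, and within tish it was tish 1 for Notch2 and tish 2 for Notch1.

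The ligand Jag1 showed the smallest change of the 4. It reached 31.1, 24.7 and 28.9 CPM among SD animals, against 20.5, 21.8 and 14.4 CPM among tish animals. The groups came close, with the lowest SD library, SD 2, only 1.13 times the highest tish library, tish 2, and those are the female of each group. The mean fell from 28.2 ± 3.27 CPM for SD to 18.9 ± 3.92 CPM for tish (± standard deviation, n = 3 per group), which is 67.0% of SD. The log2 fold change was -0.58 (SE 0.17, 95% interval -0.95 to -0.21, edgeR adjusted p = 0.0304), a level 1.49-fold higher in SD. This call was lost in some fits with 1 library left out. Such fits test fewer samples, and the SE was 0.20 without SD 3 and 0.20 without tish 1, beside 0.17 with all libraries. The edgeR adjusted p was 0.0593 without SD 1, 0.0872 without SD 3, 0.064 without tish 1 and 0.0853 without tish 3, with log2 fold changes of -0.50, -0.56, -0.64 and -0.41. Without SD 1 and tish 3 together it was 0.122, with a log2 fold change of -0.34, a choice made after seeing the data.

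The target Hes1 had the largest fold change of the 4. SD animals had 21.5, 35.1 and 25.4 CPM of it, and tish animals 7.6, 11.2 and 10.5 CPM. The groups were far apart, since even the lowest SD library was 1.92 times the highest tish library, although Hes1 varied more between SD animals than the other 3 genes did. The mean was 27.3 ± 6.98 CPM for SD animals and 9.76 ± 1.91 CPM for tish animals (± standard deviation, n = 3 per group), so tish stood at 35.7% of SD. The log2 fold change was -1.48 (SE 0.21, 95% interval -1.96 to -0.998, edgeR adjusted p = 0.00169), a level 2.79-fold higher in SD with an interval of 1.997 to 3.90. The lowest value rests on 119 counts in tish 1, with an exact 95% interval of 98.6 to 142 counts. For the 378 counts of SD 1 the interval was 341 to 418. These intervals cover counting error only and are not scaled for the library total. The spread between animals, 25.5% of the mean in SD and 19.6% in tish, was larger than the counting error of 3.92% to 9.17%.

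**Figure D2:**
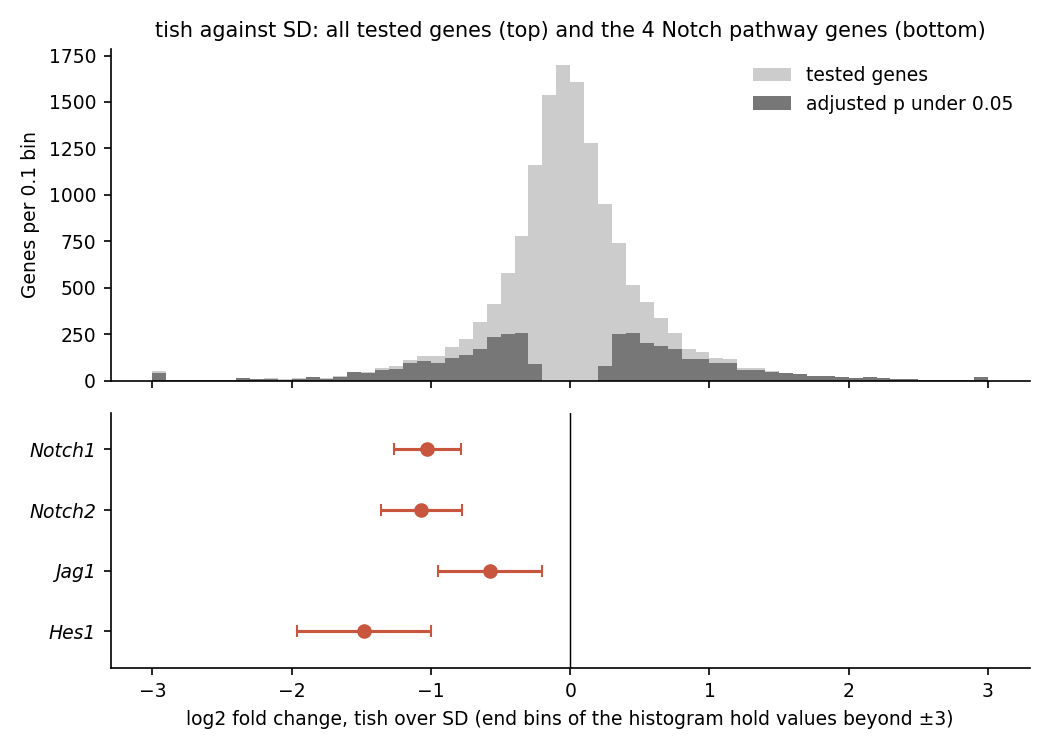
Upper panel, number of genes per bin of 0.1 in log2 fold change of tish over SD, for all tested genes (light) and for those with an adjusted p under 0.05 (dark). Lower panel, the log2 fold change of the 4 genes with 95% intervals, all of which lie below 0, from -1.48 for Hes1 to -0.58 for Jag1.

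Among all tested genes, the position of the 4 was uneven. Of the tested genes, 1.63% had a lower log2 fold change than Hes1, 3.87% lower than Notch2, 4.27% lower than Notch1 and 10.8% lower than Jag1. Hes1, Notch1 and Notch2 were more than 2-fold lower in tish by the fitted value, which together with a call held for 3.76% of tested genes. The intervals of all 3 reach folds below 2, with lower bounds of 1.73-fold for Notch1, 1.72-fold for Notch2 and 1.997-fold for Hes1.

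Hes1 is the gene of the 4 whose promoter is the textbook case of control by the Notch receptor, so its sequence is shown. The 250 bases before its start in the RefSeq table (build GRCr8, chr11:84213046-84213295, minus strand) are printed 5′ to 3′, with the RBPJ core motif TGGGAA in capitals.

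Hes1: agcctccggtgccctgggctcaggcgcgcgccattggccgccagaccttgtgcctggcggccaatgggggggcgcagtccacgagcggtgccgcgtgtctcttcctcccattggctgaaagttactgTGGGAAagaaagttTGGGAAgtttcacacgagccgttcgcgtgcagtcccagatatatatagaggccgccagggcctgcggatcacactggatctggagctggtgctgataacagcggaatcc

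The motif TGGGAA was searched on both strands (as TTCCCA on the other), and Hes1 held 2 matches, both on the strand of the gene. The first began 123 and the second 109 bases before the start, with 8 bases between them. Windows of this length held at least 1 match in 22.1% and at least 2 matches in 2.71% of 33469 promoters in the table. The windows of Notch1, Notch2 and Jag1 held 0 matches. The N box, spelled CACNAG and searched on both strands, is a motif that Hes1 protein is known to bind. It had 4 matches in the window of Hes1, 4 in that of Notch1, of which 2 overlap each other, and 0 in those of Notch2 and Jag1. Among all promoters, 37.2% held at least 1 match and 8.02% at least 2, while the share with at least 4 was not counted. No match of the N box overlapped an RBPJ core match. Such matches describe letters in a window and show no binding in these animals.

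Ratios within a library show whether the genes differ from each other in how far they were lower, free of any scaling between libraries. They compare changes and not levels, since transcript lengths were not used here. The 6 possible pairs were compared by an exact two-sided permutation test over the libraries, in which 3 against 3 cannot give a p below 0.1, so no pair could pass a threshold of 0.05.

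Notch2 and Notch1 kept nearly the same ratio in both genotypes. SD libraries held 17.5 Notch2 counts per 100 Notch1 counts, summed over animals, and tish libraries 16.9. The log2 ratio of Notch2 to Notch1 averaged -2.51 ± 0.12 for SD and -2.56 ± 0.13 for tish (± standard deviation, n = 3 per group), a difference of -0.05 that was smaller than the spread within either group (exact p = 0.8, adjusted p = 0.8 over 6 pairs).

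Hes1 was lower relative to Notch1 in every tish library than in any SD library. The log2 ratio of Hes1 to Notch1 was -3.06, -2.71 and -3.10 among SD animals and -3.77, -3.29 and -3.17 among tish animals. The gap between SD 3 and tish 3 was narrow beside counting error, which was 4.59% of the Hes1 count in SD 3 and 6.97% in tish 3. The library furthest from SD was tish 1. The mean difference was -0.45, a ratio 1.37-fold higher in SD (exact p = 0.1, the smallest possible, adjusted p = 0.3 over 6 pairs). Without tish 1 the difference was -0.27, more than 1.5 times smaller.

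The other 4 pairs overlapped between genotypes. The largest mean difference was that of Hes1 to Jag1, at -0.88 (exact p = 0.2, adjusted p = 0.3), where the SD libraries ran from -0.53 to 0.51 and the tish libraries from -1.43 to -0.46. Notch1 to Jag1 differed by -0.43 and Notch2 to Jag1 by -0.48 (exact p = 0.2 each, adjusted p = 0.3 each). Hes1 to Notch2 differed by -0.41 (exact p = 0.5, adjusted p = 0.6), and by -0.15 without tish 1 and -0.21 without SD 2. Without SD 2 the difference of Notch1 to Jag1 was -0.27. Among males alone the differences were -0.20 for Notch1 to Jag1, -0.27 for Notch2 to Jag1, -0.59 for Hes1 to Jag1 and -0.32 for Hes1 to Notch2. Without SD 1 and tish 3 together they were -0.73, -0.73, -1.36 and -0.62 in the same order. For the 3 ratios to Jag1 the sign was the same with all libraries and in both of these sets, while their size depended on the animals used.

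**Figure D3:**
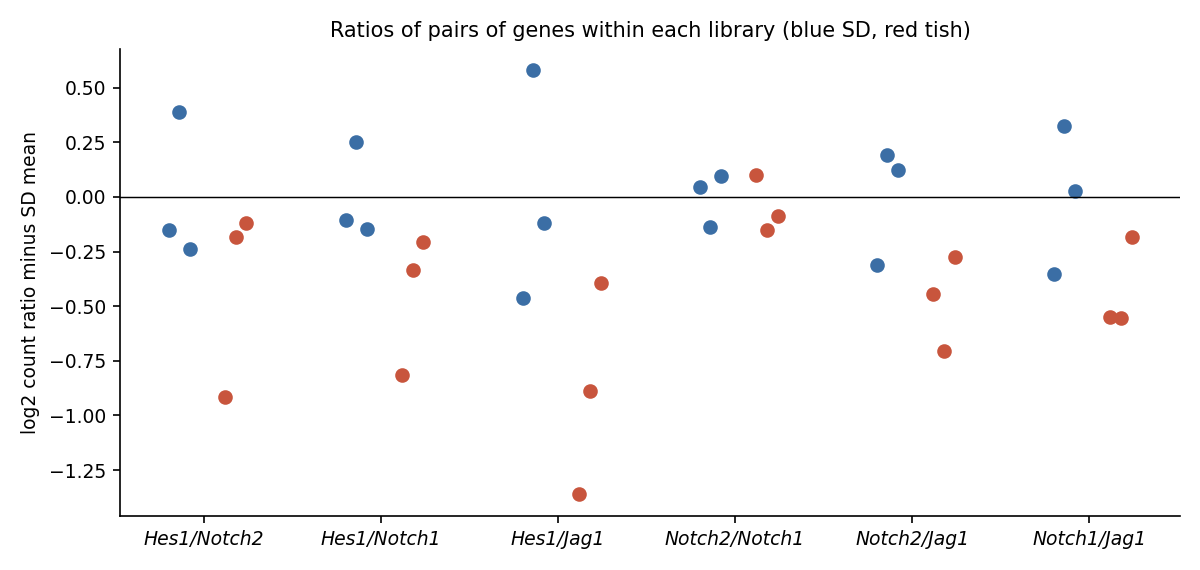
Log2 ratio of the counts of 2 genes within each library, with the mean of the SD libraries set to 0, for the 6 pairs (blue points SD, red points tish). The 2 groups lie apart only for Hes1 to Notch1, by a narrow gap, and those for Notch2 to Notch1 lie on each other, with group means that differ by -0.05.

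The female of each genotype had the highest Hes1 level of its group, 35.1 CPM in SD 2 and 11.2 CPM in tish 2. With genotype in the model, a comparison added after seeing the data, Hes1 differed by a log2 fold change of 0.45 between females and males (SE 0.16), with an edgeR adjusted p of 0.487, so the difference did not pass the test. Notch1 was also highest in both females, by 0.18 (SE 0.09, edgeR adjusted p = 0.539). The values were -0.01 (SE 0.14) for Notch2 and 0.02 (SE 0.18) for Jag1, with adjusted p-values of 0.985 and 0.966. The comparison rests on 2 females, 1 of each genotype, and 4 males.

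Among males alone, 2 against 2, the 4 genes stayed lower in tish. The log2 fold changes were -1.003 for Notch1, -1.06 for Notch2, -0.78 for Jag1 and -1.36 for Hes1, with edgeR adjusted p-values of 0.00452, 0.0126, 0.0385 and 0.00922. The female SD animal had the lowest Jag1 of its group and the female tish animal the highest of its own, and the Jag1 change was larger without them.

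**Figure D4:**
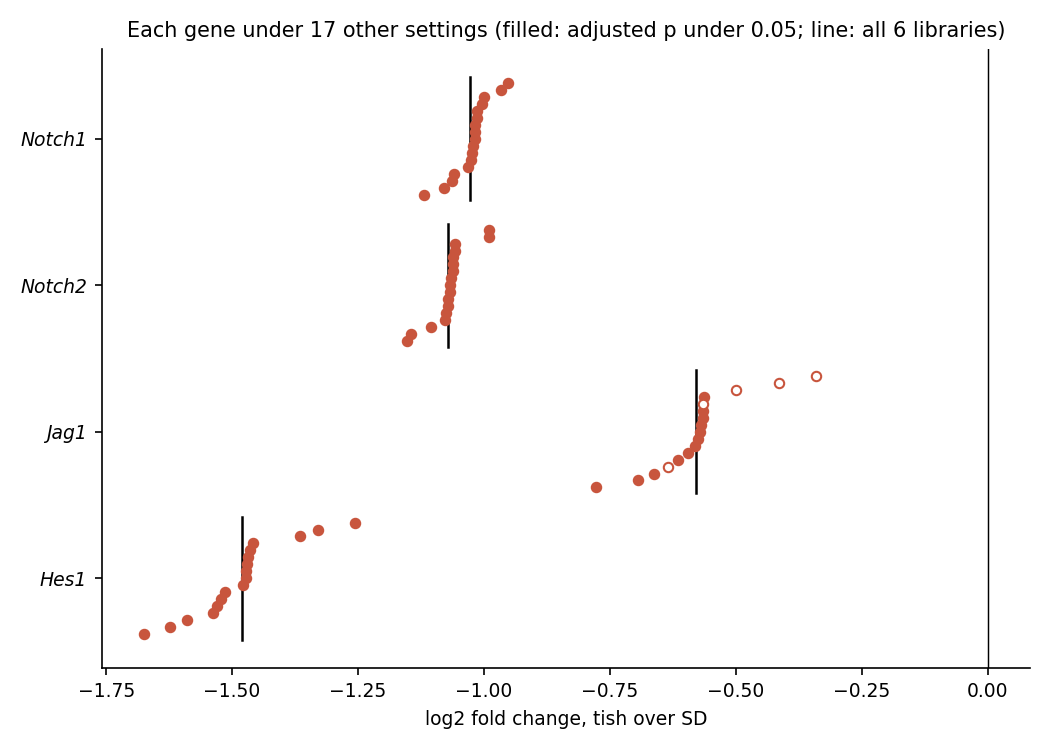
Log2 fold change of tish over SD for each gene under 17 other tests, scalings, filters and sets of libraries (points, filled where the adjusted p was under 0.05), with the value from all 6 libraries as a black line. All points of Notch1, Notch2 and Hes1 are filled and those of Hes1 run from -1.67 to -1.26, while 5 points of Jag1 are open.

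Likeness of pattern was measured as Pearson's r of log2 CPM over the 6 libraries, given as a description. The 6 libraries fall into 2 genotypes, so r includes the step between them, and a high value is common: of 14817 other tested genes, 1716 had an r above 0.9 with Notch1, 1509 with Notch2, 1416 with Hes1 and 307 with Jag1. Notch1 and Notch2 had an r of 0.98 with each other, and Notch2 ranked 282 among the genes most like Notch1. The r of Hes1 was 0.96 with Notch1, 0.90 with Notch2 and 0.67 with Jag1. The highest value over the 4 genes was the r of 0.999 between Hes1 and ENSRNOG00000010492, whose level was 48.3, 57.2 and 50.9 CPM among SD animals and 32.6, 38.4 and 36.9 CPM among tish animals. Next was the r of 0.999 between Notch2 and ENSRNOG00000008797, at 188.9, 206.2 and 233.2 CPM among SD animals and 130.1, 116.2 and 108.1 CPM among tish animals. Both IDs were picked for their high r, so the order of animals that each shares with its partner comes from that choice. They changed less than their partners, with log2 fold changes of -0.53 and -0.83 (edgeR adjusted p = 0.00571 and 0.00078).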

How the data were processed

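The submitters' processing notes name STAR, featureCounts 1.5.0 and the build Rnor_6.0. The version of STAR, the annotation, the strand setting and the handling of multi-mapped reads were not given in the sources used here. Counts of overlapping or near-identical genes are therefore uncertain. The authors deposited raw read counts per Ensembl ID, with no normalization. The table lists 32751 IDs 2 times with 0 differing values, and the first listing of each was used. The 1 line naming no gene holds 0 counts.

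The comparison used edgeR 4.0.16 under R 4.3.3 (filterByExpr, minimum count 10, TMM, robust quasi-likelihood F test, genotype as the only term), and p-values were adjusted over 14818 genes. The SE is the size of the log2 fold change divided by the square root of F. Log2 CPM for correlations used a prior count of 2. Other settings tried were DESeq2 1.42.0, limma-voom (limma 3.58.1), other scalings and filters, sex as a second term, males only, leaving out single libraries and thinning to 15625915 counts. In simulated counts for 14818 genes, 50 genes were changed at each fold size and the rest were left unchanged. The test recovered 18 of 50 changes of 1.5-fold, 34 of 50 of 2-fold, 47 of 50 of 4-fold and 46 of 50 of 8-fold. There were 10 false calls. The share of changed genes was far below the 26.3% called in the real comparison, so these recovery rates need not hold there.

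Of 47357 genes in the RefSeq table (GRCr8), 0 carry an Ensembl ID. Promoters were matched by symbol, and 4 of 4 matched. The genes, tests and lists were chosen with earlier results of these data known. The printed genes were the 4 members and, by the rule set with the tests, the IDs most like them, at most 2 per direction. Animals are numbered by sample order within a group.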

Additional observations from a re-analysis of the deposited data

How the results depend on the processing

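Of 68 log2 fold changes of the 4 genes under another setting, 63 kept direction and call, 5 lost the call, all for Jag1, and 0 reversed. With 1 library left out, Jag1 ran from -0.69 to -0.41 and lost its call without SD 1, SD 3, tish 1 or tish 3. Without SD 1 and tish 3 together, chosen after seeing the data, it was -0.34. These settings test fewer samples. Over all settings Notch1 ran from -1.12 to -0.95, Notch2 from -1.15 to -0.99 and Hes1 from -1.67 to -1.26, with adjusted p at most 0.00452, 0.0126 and 0.00922. The ratio of Notch2 to Notch1, at -0.05, was 0.00011 without SD 3 and 0.0058 without tish 2, and ran from -0.12 to 0.0058 with 1 library left out. The other 5 ratios kept their sign.

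Genes called numbered 3894, 2130 with males alone (2 against 2) and 2437 to 4764 with 1 library left out, lowest without tish 1 and 2502 without tish 3. The cause was not tested. No paired analysis was possible because the labels give the animals no shared numbers across groups.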
